A study of Mus musculus with 14 samples.

Results

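The collagen gene family was described across mouse embryonic fibroblasts of the ICR strain that had received reprogramming vectors. Members were all genes whose symbol on the array platform is Col, a number, a and a number, which picks the collagen chains and no collagen receptor or enzyme. This gave 44 of the 19935 named genes on the array. For a gene with several probe sets, that of highest mean signal over the 14 arrays was taken; only Col6a5 and Col6a6 had 2 probe sets to choose from.

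The fibroblasts were transduced with SKO plus an empty Flag vector, SKO plus HDAC7, SKO plus MEF2C, or GFP, and were lysed at day 6 or day 10. The labels do not spell out SKO, a shorthand used in the field for Sox2, Klf4 and Oct4, 3 reprogramming factors. All cells, the GFP controls included, grew in a medium made for mouse embryonic stem cells, and feeder cells were removed before lysis. Each SKO group had 2 arrays per day, numbered as experiments, and GFP had 1 array per day. HDAC7 belongs to the class IIa histone deacetylases, enzymes that bind MEF2 transcription factors such as MEF2C and repress their targets. The labels name no promoter for the vectors, and they do not say whether the experiments were separate cultures. A p-value here therefore reflects the spread between the arrays of a group and no more, and that spread may be technical. The comparisons ask how collagen expression differed after SKO, and after HDAC7 or MEF2C was added to it. Expression is given on the log2 scale, so that a difference of 1 is a doubling.

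Collagens are proteins of the extracellular matrix in which chains wind into a triple helix. Fibrillar collagens form the rope-like fibrils of connective tissue, and FACIT collagens sit on the surface of such fibrils. Type IV collagens form the sheet of basement membranes, types VIII and X form hexagonal networks, and type VI forms beaded filaments around cells. Fibroblasts are the main producers of fibrillar collagen, and its decline is a known sign of the change from a mesenchymal to an epithelial state at the start of reprogramming. The 44 chains comprised 11 fibrillar, 9 FACIT, 6 basement membrane, 6 beaded filament, 3 network, 4 transmembrane and 2 multiplexin chains. The anchoring fibril chain Col7a1 and a rest of 2 chains, Col26a1 and Col28a1, completed the set.

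The sequences just before the transcription starts of 4 chains are shown here, because Col8a1, Col10a1 and Col11a1 rose with MEF2C whereas Col3a1 rose with HDAC7. They are the 250 bases before the RefSeq start on build GRCm38.p6, read 5′ to 3′ on the strand of the gene. The Col8a1 stretch is at chr16:57754738-57754987 on the minus strand. Those of Col10a1 (chr10:34389731-34389980), Col11a1 (chr3:114030290-114030539) and Col3a1 (chr1:45311288-45311537) are on the plus strand. Capitals mark short motifs on either strand, namely the GC box GGGCGG, the box with the letters CCAAT, and the TATA box written as TATAAA.
Col8a1: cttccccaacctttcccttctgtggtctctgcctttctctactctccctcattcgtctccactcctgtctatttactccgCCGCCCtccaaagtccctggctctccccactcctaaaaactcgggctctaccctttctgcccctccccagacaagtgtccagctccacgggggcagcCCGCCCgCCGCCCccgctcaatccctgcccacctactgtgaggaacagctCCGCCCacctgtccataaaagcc
Col10a1: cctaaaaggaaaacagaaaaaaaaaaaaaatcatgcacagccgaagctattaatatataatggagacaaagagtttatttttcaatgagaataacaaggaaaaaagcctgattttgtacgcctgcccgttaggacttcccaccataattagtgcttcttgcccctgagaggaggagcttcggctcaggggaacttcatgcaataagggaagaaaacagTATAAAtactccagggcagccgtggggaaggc
Col11a1: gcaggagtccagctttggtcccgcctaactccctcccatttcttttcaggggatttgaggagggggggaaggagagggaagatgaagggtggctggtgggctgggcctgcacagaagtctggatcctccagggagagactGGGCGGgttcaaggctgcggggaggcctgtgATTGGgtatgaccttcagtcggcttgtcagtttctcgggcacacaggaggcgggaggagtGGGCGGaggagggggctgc
Col3a1: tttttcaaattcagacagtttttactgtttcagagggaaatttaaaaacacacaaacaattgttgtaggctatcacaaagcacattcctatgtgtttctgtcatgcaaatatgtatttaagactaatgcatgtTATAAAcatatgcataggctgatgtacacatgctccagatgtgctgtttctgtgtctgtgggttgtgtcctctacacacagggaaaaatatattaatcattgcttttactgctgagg
In these windows Col8a1 had 4 copies of GGGCGG, all on the opposite strand, and no TATAAA. Col10a1 had TATAAA from 32 to 27 bases before its start. Col11a1 held 2 copies of GGGCGG and a CCAAT on the opposite strand, and Col3a1 had a TATAAA from 117 to 112 bases before its start. The RefSeq promoter table matched 35 of the 44 chains, with 38 windows; Col5a2 and Col12a1, which differed more between HDAC7 and MEF2C than Col3a1, Col10a1 and Col11a1, were not matched. GGGCGG was in 57.89% of the collagen windows and in 32.74% of all 32851 windows, CCAAT in 34.21% against 33.85%, and TATAAA in 13.16% against 12.37%. A MEF2 site was found in the window of 1 chain, Col13a1, which is 2.63% of the collagen windows against 2.92% of all. In Col13a1 a TATAAA match lies inside the MEF2 site. A match describes letters only.

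The SD of the difference between replicate arrays over the 44 chains lay between 0.09 and 0.13. The median difference of the chains between array 1 and array 2 was -0.09 in SKO+Flag at day 6 and 0.15 at day 10 (all genes -0.02 and 0.00), and -0.04 to 0.05 in the other groups. Array medians lay between 5.68 and 5.76. Of the 44 chains, 34 lay above the array median on all 14 arrays and 10 on some arrays only. Checked against the labelled cell type, 10 of 12 fibroblast markers lay above the array median on every array. Fap lay below it on every array. The defining markers of endothelium (5 of 6), macrophages (5 of 6) and keratinocytes (3 of 5) lay below the median on every array. Tek lay above it on 12 arrays, Cd68 on 13, Krt14 on 10 and Trp63 on 1. In bulk RNA, fewer cells of a type and less RNA per cell cannot be told apart.

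More collagen chains were called lower than higher when SKO was compared with GFP and when HDAC7 was added to SKO. With MEF2C 7 chains were called, near the share of genes at their level, and 6 of these rose. A chain counts as called where limma's p, adjusted by Benjamini-Hochberg over all genes, was under 0.05; the counts that follow are on the mean of both days. Between SKO+Flag and GFP, 28 of 44 chains were called, 3 higher and 25 lower, against 35.7% of all genes called (17.5% higher and 18.2% lower). Between SKO+HDAC7 and SKO+Flag, 18 were called, 2 higher and 16 lower, against 10.9% of all genes (4.83% higher and 6.06% lower). Between SKO+MEF2C and SKO+Flag, 7 were called, 6 higher and 1 lower, against 10.3% of all genes (5.49% higher and 4.82% lower). Between SKO+HDAC7 and SKO+MEF2C, 17 were called, 2 higher and 15 lower, against 22% of all genes (10.3% higher and 11.8% lower). The share of 18 in 44 is 40.9%, that of 7 in 44 is 15.9%, and that of 17 in 44 is 38.6%. The median difference over all 44 chains was -0.26 for SKO+Flag over GFP, -0.02 for HDAC7 and 0.04 for MEF2C, beside -0.04, 0.02 and 0.01 over all genes. Of the 35 chains above the level of the median gene, 24 were called for SKO+Flag over GFP, 18 for HDAC7 and 7 for MEF2C. These are shares of 68.6%, 51.4% and 20%. When only genes above that level were tested, with p adjusted over those genes, 26, 18 and 9 of these chains were called. In that test 56.3%, 20.6% and 20.9% of the genes were called, so the MEF2C count lay near the share of genes. Between SKO+HDAC7 and SKO+MEF2C, 38.5% of the genes above that level were called. In the test over all genes, 48.6% of the 35 chains were called between these groups. The HDAC7 and MEF2C comparisons share the SKO+Flag arrays, so their values are given side by side without a measure of their relation.

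**Figure D1:**
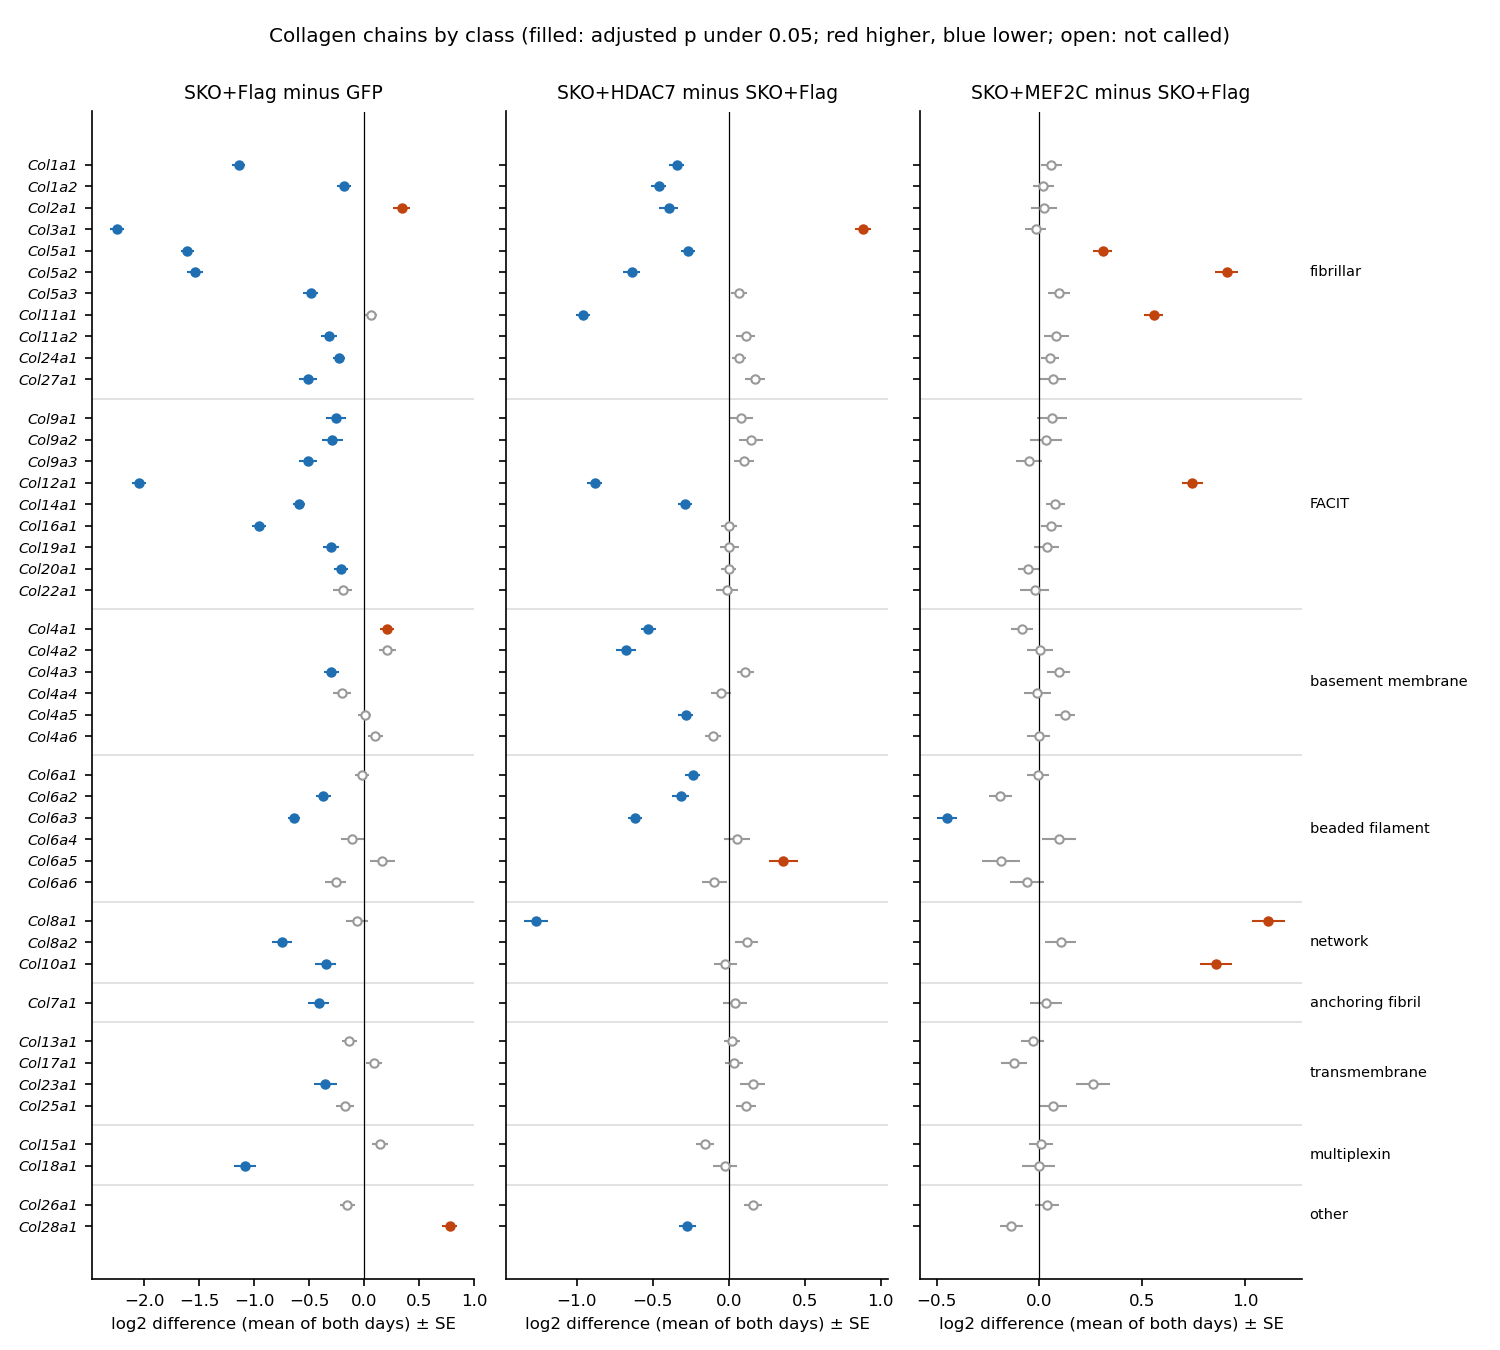
Difference in log2 expression (x axis, mean of both days ± SE) for each of the 44 chains (y axis, grouped by class) in 3 comparisons, with called chains filled red where higher and blue where lower and the others open. SKO+Flag against GFP has 25 chains on the lower side, HDAC7 has 16 lower and Col3a1 and Col6a5 higher, and MEF2C has 6 higher and Col6a3 lower; the x axes have different ranges.

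On the mean of both days the fibrillar chain Col3a1 showed the largest fall of the 44 chains after SKO, while at day 10 alone the FACIT chain Col12a1 fell more (-2.91 against -2.63). With HDAC7 the called fibrillar chains went in both directions. Of 11 fibrillar chains, 1 was higher and 9 were lower in SKO+Flag than in GFP (90.9% called, against 35.7% of all genes). With HDAC7, 1 was higher and 6 were lower (63.6% against 10.9%). With MEF2C, 3 were higher and none lower (27.3% against 10.3%). Among genes above the median level the shares called were 56.3%, 20.6% and 20.9%. Col3a1 encodes the chain of type III collagen, which makes thin fibrils in soft tissue. It lay at 10.67 (day 6) and 11.80 (day 10) on the GFP arrays and at 8.74 and 8.87 (day 6) and 9.21 and 9.14 (day 10) on the SKO+Flag arrays. In SKO+HDAC7 it lay at 9.48 and 9.50 (day 6) and 10.29 and 10.22 (day 10), and in SKO+MEF2C at 8.77 and 8.91 (day 6) and 9.17 and 9.03 (day 10). The GFP arrays were the highest, every SKO+HDAC7 array lay above every SKO+Flag array, and the SKO+MEF2C arrays overlapped SKO+Flag. Col3a1 was 4.75-fold lower in SKO+Flag than in GFP (-2.25 ± 0.06 SE, limma adjusted p = 5.5e-10, 4 arrays against 2). It was 1.84-fold higher with HDAC7 than with the empty vector (0.88 ± 0.05, adjusted p = 2.4e-06, 4 arrays against 4). With MEF2C the difference was -0.02 ± 0.05 (adjusted p = 0.91).

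Type I collagen, the main fibrillar collagen of bone, skin and tendon, is built from the chains of Col1a1 and Col1a2. Col1a1 lay at 12.48 (day 6) and 12.89 (day 10) with GFP, at 11.72 and 11.77 (day 6) and 11.40 and 11.28 (day 10) with SKO+Flag, at 11.62 and 11.52 (day 6) and 10.91 and 10.76 (day 10) with SKO+HDAC7 and at 11.76 and 11.80 (day 6) and 11.41 and 11.43 (day 10) with SKO+MEF2C. Its GFP arrays were above all others, and its SKO+HDAC7 arrays lay below the SKO+Flag arrays of the same day. The difference from GFP was -1.14 ± 0.06 (limma adjusted p = 6.7e-08) in SKO+Flag. Col1a2 lay at 12.24 (day 6) and 12.63 (day 10) with GFP and at 12.33 and 12.31 (day 6) and 12.22 and 12.16 (day 10) with SKO+Flag, so these groups overlapped. Its difference there was -0.18 ± 0.06 (limma adjusted p = 0.035), with 2 of 4 array pairs lower. That call was lost after quantile normalization (-0.01, adjusted p = 0.92), in a fit to the compared groups alone (adjusted p = 0.074), and without SKO+Flag array 1 or 2 of day 6 or array 2 of day 10 (adjusted p of 0.060, 0.065 and 0.077). Both chains were lower with HDAC7, with differences of -0.34 ± 0.05 for Col1a1 (limma adjusted p = 0.0013) and -0.46 ± 0.05 for Col1a2 (adjusted p = 0.00017). With MEF2C the differences were 0.06 and 0.02 (limma adjusted p = 0.59 and 0.9).

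Types V and XI collagen form the core on which fibrils of types I and II are laid down. With MEF2C, Col5a1, Col5a2 and Col11a1 were higher, and with HDAC7 they were lower. Col5a2 lay at 10.01 (day 6) and 10.43 (day 10) with GFP and at 8.77 and 8.80 (day 6) and 8.68 and 8.47 (day 10) with SKO+Flag. It lay at 8.23 and 8.15 (day 6) and 7.85 and 7.94 (day 10) with SKO+HDAC7 and at 9.77 and 9.65 (day 6) and 9.42 and 9.52 (day 10) with SKO+MEF2C. The 4 vectors did not overlap, in the order GFP, SKO+MEF2C, SKO+Flag and SKO+HDAC7 from high to low. Col5a2 was 2.91-fold lower in SKO+Flag than in GFP (-1.54 ± 0.07, limma adjusted p = 1.7e-08). It was lower with HDAC7 (-0.64 ± 0.06, adjusted p = 4.7e-05) and higher with MEF2C (0.91 ± 0.06, adjusted p = 4.6e-06).

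Col5a1, the partner chain of Col5a2 in type V collagen, was 3.05-fold lower in SKO+Flag than in GFP (-1.61 ± 0.06, limma adjusted p = 2.7e-09). It lay at 8.93 (day 6) and 9.50 (day 10) with GFP and at 7.79 and 7.82 (day 6) and 7.45 and 7.36 (day 10) with SKO+Flag. It moved less than Col5a2 under the added factors, with -0.27 ± 0.05 for HDAC7 (limma adjusted p = 0.0043) and 0.31 ± 0.05 for MEF2C (adjusted p = 0.0018); the difference between the chains was not tested. Col11a1, the first chain of type XI collagen, lay at 7.97 (day 6) and 8.83 (day 10) with GFP and at 8.55 and 8.52 (day 6) and 8.35 and 8.42 (day 10) with SKO+Flag. With SKO+HDAC7 it lay at 7.90 and 7.86 (day 6) and 7.18 and 7.07 (day 10) and with SKO+MEF2C at 8.78 and 8.89 (day 6) and 9.16 and 9.23 (day 10). All SKO+HDAC7 arrays were below, and all SKO+MEF2C arrays above, the SKO+Flag arrays, while the GFP arrays lay on both sides of them. Col11a1 was 1.94-fold lower with HDAC7 (-0.96 ± 0.05, limma adjusted p = 6.1e-07) and 1.47-fold higher with MEF2C (0.55 ± 0.05, adjusted p = 2.8e-05). Against GFP the mean over days was 0.06 ± 0.06 (adjusted p = 0.47).

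Col2a1, the chain of cartilage type II collagen, was the fibrillar chain that was higher in SKO+Flag than in GFP, by 0.34 ± 0.08 (limma adjusted p = 0.0059). It lay at 8.20 (day 6) and 8.0 (day 10) with GFP, at 8.48 and 8.61 (day 6) and 8.41 and 8.27 (day 10) with SKO+Flag and at 8.38 and 8.35 (day 6) and 7.84 and 7.62 (day 10) with SKO+HDAC7. With HDAC7 it was lower (-0.39 ± 0.06, limma adjusted p = 0.0026). With MEF2C the difference was 0.02 ± 0.06 (adjusted p = 0.92). The chondrocyte markers that commonly accompany it did not move as 1 group. Among 6 of them, 1 was higher and 2 lower in SKO+Flag than in GFP. With HDAC7, Hapln1 was lower (-0.51) and with MEF2C Acan (0.81) and Hapln1 (0.41) were higher. Matn1 and Snorc lay below the array median on every array, and the summed linear level of the 6 lay at 249 to 299 in SKO+Flag, 313 to 383 in GFP, 225 to 281 in SKO+HDAC7 and 318 to 347 in SKO+MEF2C. Their part in the Col2a1 result was not tested. The remaining fibrillar chains, Col5a3, Col11a2, Col24a1 and Col27a1, were called lower in SKO+Flag than in GFP, with differences of -0.51 to -0.23, and were not called with HDAC7 or MEF2C.

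**Figure D2:**
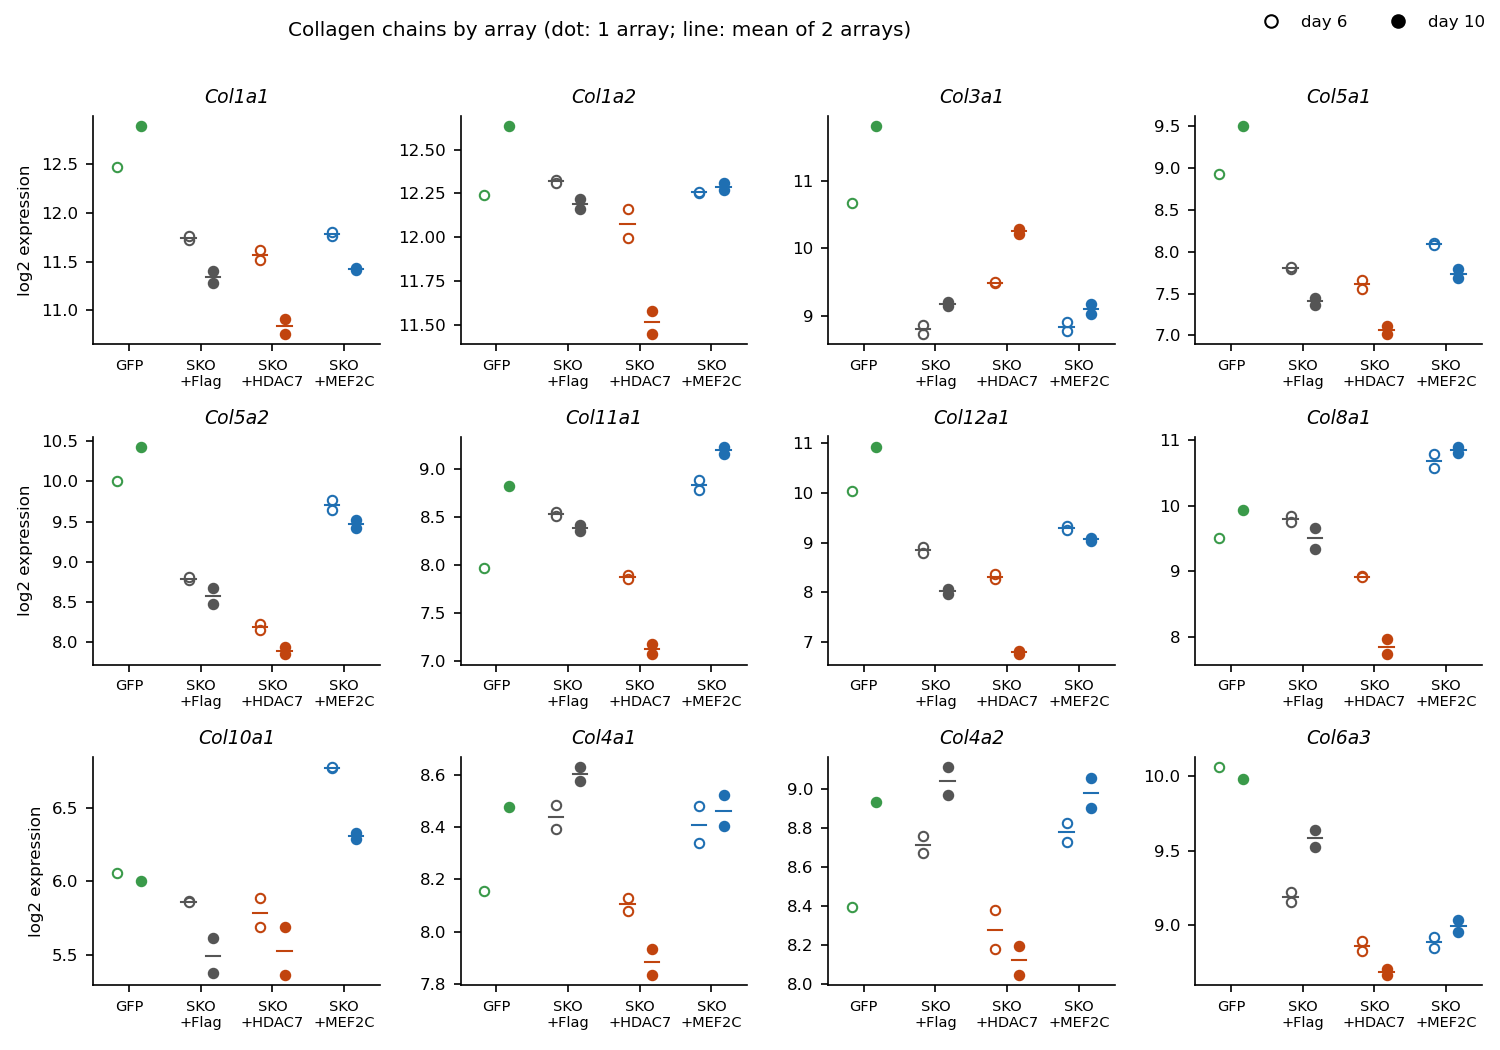
Log2 expression (y axis, a scale of its own in each panel) of 12 chains on each of the 14 arrays, by vector (x axis), with open dots for day 6, filled dots for day 10 and a short line at the mean of 2 arrays. Col3a1 is higher with HDAC7 than with the empty vector, Col5a2, Col11a1, Col12a1 and Col8a1 are lower with HDAC7 and higher with MEF2C, and Col10a1 is higher with MEF2C.

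On the mean of both days, 8 of the 9 FACIT chains were lower in SKO+Flag than in GFP (88.9% against 35.7% of all genes). With HDAC7 and MEF2C, 2 and 1 of them were called (22.2% against 10.9%, and 11.1% against 10.3%). Among genes above the median level the shares called were 56.3%, 20.6% and 20.9%. The HDAC7 and MEF2C counts of this class lie near or below those shares. Col12a1, whose product binds type I fibrils, lay at 10.04 (day 6) and 10.92 (day 10) with GFP and at 8.91 and 8.79 (day 6) and 7.96 and 8.07 (day 10) with SKO+Flag. It lay at 8.27 and 8.36 (day 6) and 6.76 and 6.83 (day 10) with SKO+HDAC7 and at 9.34 and 9.25 (day 6) and 9.03 and 9.10 (day 10) with SKO+MEF2C. GFP was highest and SKO+MEF2C lay above SKO+Flag. The SKO+HDAC7 arrays lay below the SKO+Flag arrays of the same day, although the groups overlapped when days were mixed. Col12a1 was 4.14-fold lower in SKO+Flag than in GFP (-2.05 ± 0.06, limma adjusted p = 7.3e-10). The HDAC7 difference was -0.88 ± 0.05 (adjusted p = 1.7e-06) and the MEF2C difference 0.74 ± 0.05 (adjusted p = 6.7e-06). Col14a1, another FACIT chain, was lower in SKO+Flag (-0.59 ± 0.06, limma adjusted p = 8.0e-06) and lower again with HDAC7 (-0.29 ± 0.05, adjusted p = 0.0023). Col16a1, named after its values were seen because its fall was next in size, was lower in SKO+Flag (-0.96 ± 0.06, limma adjusted p = 3.6e-07). The FACIT chain that was not called there was Col22a1. Among those called, Col19a1 lay above the array median on 1 array and Col20a1 on 9. On the other arrays their signal is not shown to be above background.

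Of the 3 network chains, Col8a1 gave the largest difference of the 44 chains between SKO+HDAC7 and SKO+MEF2C, while Col8a2 did not pass the test there. Col8a1, a chain of type VIII collagen found in the matrix below vascular and corneal endothelium, lay at 9.85 and 9.76 (day 6) and 9.35 and 9.66 (day 10) with SKO+Flag. It lay at 8.92 and 8.91 (day 6) and 7.74 and 7.96 (day 10) with SKO+HDAC7, at 10.79 and 10.57 (day 6) and 10.81 and 10.90 (day 10) with SKO+MEF2C and at 9.51 (day 6) and 9.93 (day 10) with GFP. The 3 SKO groups did not overlap, and the GFP arrays lay among or just above the SKO+Flag arrays. Col8a1 was 2.41-fold lower with HDAC7 (-1.27 ± 0.08, limma adjusted p = 3.3e-06) and 2.16-fold higher with MEF2C (1.11 ± 0.08, adjusted p = 9.6e-06). Between SKO+HDAC7 and SKO+MEF2C it differed 5.21-fold (-2.38 ± 0.08, adjusted p = 8.8e-09). Against GFP the SKO+Flag difference was -0.07 ± 0.10 (adjusted p = 0.65).

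Col8a2, the partner chain of type VIII, took another course. It was lower in SKO+Flag than in GFP (-0.75 ± 0.09, limma adjusted p = 7.0e-05), and its differences with HDAC7 (0.12 ± 0.08, adjusted p = 0.37) and MEF2C (0.10 ± 0.08, adjusted p = 0.5) were not called. Col10a1, the type X chain of hypertrophic cartilage, lay at 6.77 and 6.77 (day 6) and 6.33 and 6.28 (day 10) with SKO+MEF2C, above all other arrays. It lay at 5.87 and 5.86 (day 6) and 5.62 and 5.38 (day 10) with SKO+Flag, at 5.69 and 5.89 (day 6) and 5.69 and 5.37 (day 10) with SKO+HDAC7 and at 6.06 (day 6) and 6.0 (day 10) with GFP. The MEF2C difference was 0.86 ± 0.08 (limma adjusted p = 5.0e-05) and the HDAC7 difference -0.02 ± 0.08 (adjusted p = 0.9). On some SKO+Flag and SKO+HDAC7 arrays Col10a1 lay below the array median, so that its signal there is not shown to be above background.

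Of the 6 basement membrane chains, 3 were lower with HDAC7, a share of 50% against 10.9% of all genes. None was called with MEF2C in limma, against 10.3% of all genes (1, Col4a5, at an unadjusted p under 0.05). Among genes above the median level the shares called were 20.6% and 20.9%. The 3 chains called with HDAC7, Col4a1, Col4a2 and Col4a5, were those above the array median on every array. Col4a1 and Col4a2, which make the common type IV collagen, lay at 8.39 and 8.49 (day 6) and 8.63 and 8.58 (day 10) and at 8.67 and 8.76 (day 6) and 9.11 and 8.97 (day 10) in SKO+Flag. In SKO+HDAC7 they lay at 8.13 and 8.08 (day 6) and 7.93 and 7.84 (day 10) and at 8.38 and 8.18 (day 6) and 8.20 and 8.05 (day 10). For both chains every SKO+HDAC7 array lay below every SKO+Flag array. The differences were -0.53 ± 0.05 and -0.67 ± 0.06 (limma adjusted p = 8.8e-05 and 7.5e-05). With MEF2C they were -0.08 ± 0.05 and 0.00 ± 0.06 (adjusted p = 0.4 and 0.99). Against GFP both differed by 0.21 in SKO+Flag, with limma adjusted p = 0.026 for Col4a1 and 0.059 for Col4a2. The Col4a1 call was lost after quantile normalization (0.12, adjusted p = 0.19), in the compared groups alone (adjusted p = 0.067) and without SKO+Flag array 2 of day 6 or array 1 of day 10 (adjusted p of 0.063 and 0.051). Col4a5, a chain of another type IV collagen, was lower with HDAC7 (-0.28 ± 0.05, limma adjusted p = 0.003).

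Col4a1 and Col4a2 lie head to head on mouse chromosome 8. In RefSeq on GRCm38.p6 the first base of Col4a1, on the minus strand, is 11312826 and that of Col4a2, on the plus strand, is 11312805, so that the starts overlap by 22 bases. The stretch, at chr8:11312805-11312826, is printed on the plus strand because 1 short piece of DNA holds both starts.
Col4a1-Col4a2: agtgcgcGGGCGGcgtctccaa
In capitals is the GC box. Among the 8 pairs of neighbouring collagen genes, both chains of Col4a1 and Col4a2 and of Col6a1 and Col6a2 were called lower with HDAC7, whereas Col3a1 and Col5a2 were called in opposite directions. Col3a1 and Col5a2 are next to each other on chromosome 1, and with HDAC7 they differed by 0.88 and -0.64, both called. With MEF2C they differed by -0.02, not called, and 0.91, called. Both were lower in SKO+Flag than in GFP (-2.25 and -1.54).

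Type VI collagen, the beaded filament around many cells, is built from Col6a1, Col6a2 and Col6a3, or with Col6a4, Col6a5 or Col6a6 in the place of Col6a3. Col6a3 lay at 10.06 (day 6) and 9.99 (day 10) with GFP, at 9.15 and 9.22 (day 6) and 9.64 and 9.52 (day 10) with SKO+Flag, at 8.89 and 8.82 (day 6) and 8.70 and 8.66 (day 10) with SKO+HDAC7 and at 8.84 and 8.92 (day 6) and 8.95 and 9.03 (day 10) with SKO+MEF2C. It was the chain that was lower under both added factors, and neither group overlapped SKO+Flag. The differences were -0.62 ± 0.05 for HDAC7 (limma adjusted p = 1.3e-05) and -0.45 ± 0.05 for MEF2C (adjusted p = 0.00013). Both comparisons use the same SKO+Flag arrays. Col6a1 and Col6a2 were lower with HDAC7 (-0.24 ± 0.05 and -0.31 ± 0.06, limma adjusted p = 0.013 and 0.0045). The Col6a1 call was lost without SKO+HDAC7 array 2 of day 10 (-0.22, adjusted p = 0.051). With MEF2C the differences were -0.01 and -0.19 (limma adjusted p = 0.97 and 0.058).

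Col6a5 was higher with HDAC7, and its 2 probe sets gave different sizes. On the probe set with the higher mean it lay at 6.12 and 6.08 (day 6) and 6.72 and 6.33 (day 10) with SKO+Flag and at 6.57 and 6.40 (day 6) and 6.95 and 6.78 (day 10) with SKO+HDAC7, a difference of 0.36 ± 0.09 (limma adjusted p = 0.033). The groups overlapped, and the call was lost without 6 of the 8 arrays left out in turn (adjusted p of 0.051 to 0.12); it held without SKO+Flag array 1 of day 10 or SKO+HDAC7 array 2 of day 6. On the other probe set Col6a5 lay at 6.12 and 6.0 (day 6) and 6.31 and 6.60 (day 10) with SKO+Flag, at 7.19 and 7.29 (day 6) and 7.68 and 7.63 (day 10) with SKO+HDAC7, at 5.27 and 5.53 (day 6) and 5.61 and 5.41 (day 10) with SKO+MEF2C and at 5.23 (day 6) and 5.36 (day 10) with GFP. There no SKO+HDAC7 array overlapped another group, and the SKO+MEF2C and GFP arrays were lowest. This probe set, looked at after the data were seen, gave 1.19 ± 0.08 for HDAC7 (limma adjusted p = 5.8e-06), -0.80 ± 0.08 for MEF2C (adjusted p = 9.9e-05) and 0.97 ± 0.10 for SKO+Flag over GFP (adjusted p = 1.4e-05). All GFP and SKO+MEF2C values of this probe set lay below the array medians, where signal cannot be told from background, so the sizes of the last 2 differences are uncertain. Which part of the gene each probe set covers is not given in the sources used here.

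The transmembrane, multiplexin, anchoring fibril and remaining chains changed in fewer cases. Col28a1, a chain with von Willebrand factor A domains, was higher in SKO+Flag than in GFP by 0.78 ± 0.07 (limma adjusted p = 3.4e-06) and lower with HDAC7 (-0.27 ± 0.05, adjusted p = 0.009). It lay at 6.27 (day 6) and 6.87 (day 10) with GFP, at 7.09 and 7.24 (day 6) and 7.54 and 7.51 (day 10) with SKO+Flag and at 6.95 and 6.81 (day 6) and 7.22 and 7.31 (day 10) with SKO+HDAC7. Col18a1, the source of the fragment endostatin, was named after its values were seen and was lower in SKO+Flag (-1.08 ± 0.10, limma adjusted p = 5.2e-06). The 4 transmembrane and 2 multiplexin chains and Col7a1 held no call with HDAC7 or with MEF2C in limma. At an unadjusted p under 0.05 there was 1 multiplexin chain with HDAC7, Col15a1 (-0.16 ± 0.06), and 1 transmembrane chain with MEF2C, Col23a1 (0.26 ± 0.08), both named after their values were seen. The 9 chains at or below the level of the median gene, which hold 4 of the 28 chains called between SKO+Flag and GFP, had no call in the HDAC7 and MEF2C comparisons.

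Calls were also counted at each day, and the change of an effect between days was tested. Between SKO+HDAC7 and SKO+Flag, 1 chain was higher and 7 were lower at day 6 (4.58% of all genes called, 1.82% higher and 2.76% lower), and 1 was higher and 15 were lower at day 10 (7.27%, with 3.33% higher and 3.95% lower). Col8a1 differed by -0.89 at day 6 and -1.65 at day 10, Col3a1 by 0.69 and 1.08, and Col4a2 by -0.43 and -0.91. All of these were called in limma at both days. The change of the HDAC7 effect between days was called for 2 chains, both lower at day 10 (0.125% of all genes, 0.0401% higher and 0.0853% lower). These were Col12a1, with -0.54 at day 6 and -1.22 at day 10, a change of -0.68 ± 0.10 (limma adjusted p = 0.034), and Col11a1, with -0.65 and -1.26, a change of -0.61 ± 0.09 (adjusted p = 0.042). Both calls were lost without any 1 of the SKO+Flag arrays of day 6 or of the 4 SKO+HDAC7 arrays (Col12a1 adjusted p of 0.060 to 0.14, Col11a1 of 0.084 to 0.17). The Col11a1 call was also lost without SKO+Flag array 1 of day 10 (adjusted p = 0.057). Both calls were also lost with array weights (adjusted p = 0.055 for Col12a1 and 0.069 for Col11a1), with the replicate block within day (0.056 and 0.098) and in the compared groups alone (0.11 for both).

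With MEF2C, 6 chains were higher and 1, Col6a3, was lower at each day (3.1% of all genes called at day 6, 1.33% higher and 1.77% lower, and 7.01% at day 10, 4% higher and 3% lower). Col8a1 differed by 0.88 at day 6 and 1.35 at day 10, Col12a1 by 0.44 and 1.05, Col5a2 by 0.92 and 0.90, and Col10a1 by 0.91 and 0.81. The day 6 calls were fewer without any 1 of the 4 arrays, with 3 or 4 collagens called in place of 7. The change of the MEF2C effect between days was called for none of the 44 chains in limma (0.0853% of all genes, 0.0451% higher and 0.0401% lower), and 5 chains had an unadjusted p under 0.05. These were Col12a1 (0.61 ± 0.10, adjusted p = 0.062), Col11a1 (0.51 ± 0.09, adjusted p = 0.087), Col8a1, Col6a3 and Col17a1.

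**Figure D3:**
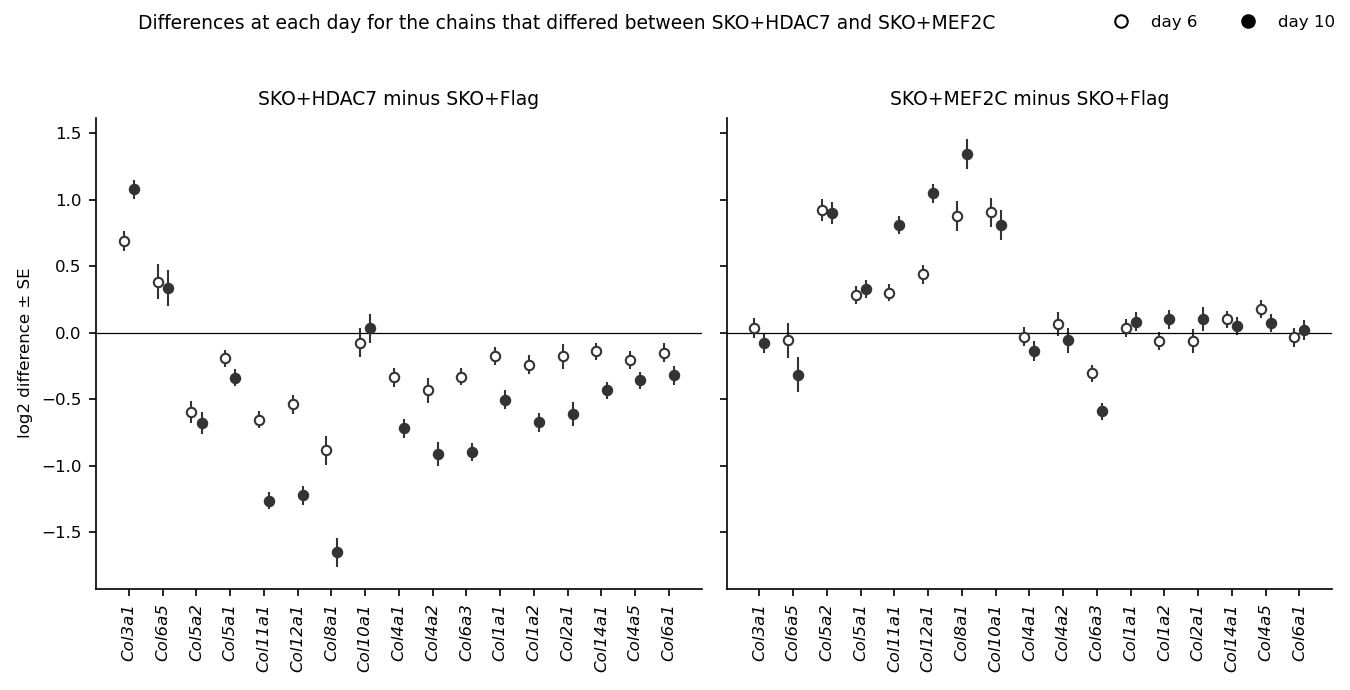
Difference from SKO+Flag in log2 expression (y axis, ± SE) with HDAC7 (left) and MEF2C (right) at day 6 (open) and day 10 (filled) for the 17 chains called between SKO+HDAC7 and SKO+MEF2C (x axis). Col8a1 goes from -0.89 to -1.65 with HDAC7 and from 0.88 to 1.35 with MEF2C, and Col3a1 from 0.69 to 1.08 with HDAC7.

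Between SKO+Flag and GFP, 4 chains were higher and 12 lower at day 6 (24.1% of all genes called, 13.2% higher and 10.8% lower), and 3 were higher and 24 lower at day 10 (26.9%, with 13.7% higher and 13.2% lower). Each day rests on 1 GFP array, which has no spread of its own and borrows that of the SKO groups. Col3a1 differed by -1.87 at day 6 and -2.63 at day 10, Col12a1 by -1.19 and -2.91, and Col1a1 by -0.73 and -1.55. The change between days was called for 11 chains, 1 higher and 10 lower (5.06% of all genes, 1.9% higher and 3.16% lower). It was -1.72 ± 0.12 for Col12a1 (limma adjusted p = 2.3e-05) and -1.0 ± 0.11 for Col11a1 (adjusted p = 0.00047). Col11a1 was higher than GFP by 0.56 at day 6 and lower at day 10 (-0.44), both called. The other chains called higher were Col28a1 (0.90), Col2a1 (0.34) and Col4a1 (0.28) at day 6, and Col28a1 (0.66), Col17a1 (0.35) and Col2a1 (0.34) at day 10. Of these, the Col28a1 calls held under every setting and without each SKO+Flag array. Col17a1 lay below the array median on the GFP array of day 10, so that its signal there is not shown to be above background. The Col2a1 and Col4a1 calls of day 6 were lost after quantile normalization (adjusted p = 0.22 for both), in the compared groups alone and without either SKO+Flag array of day 6 (adjusted p of 0.054 and 0.16 for Col2a1, 0.052 and 0.13 for Col4a1). The Col17a1 and Col2a1 calls of day 10 were lost in the compared groups alone and without SKO+Flag array 1 of day 10 (adjusted p = 0.13 and 0.15), and that of Col2a1 also after quantile normalization (adjusted p = 0.14). On the GFP arrays the 2 single values of Col3a1, Col1a1, Col5a1, Col5a2 and Col12a1 were higher at day 10 than at day 6. Of these chains, Col3a1 was called higher and Col1a1, Col5a1 and Col12a1 lower at day 10 in SKO+Flag. Only the Col12a1 call held in the compared groups alone.

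Within SKO+Flag, 5 chains were higher and 3 lower at day 10 than at day 6 (8.08% of all genes called, 3.75% higher and 4.33% lower). Within SKO+HDAC7, 2 were higher and 12 lower (14.6%, with 7.86% higher and 6.7% lower). Within SKO+MEF2C 3 were higher and 3 lower (3.08%, with 1.85% higher and 1.23% lower). In SKO+Flag the chains higher at day 10 were Col6a3 (0.39), Col3a1 (0.37), Col28a1 (0.36), Col14a1 (0.34) and Col17a1 (0.34), and the lower were Col12a1 (-0.84), Col1a1 (-0.40) and Col5a1 (-0.40). In SKO+HDAC7 Col3a1 (0.76) and Col28a1 (0.39) were higher, and the falls were led by Col12a1 (-1.52), Col8a1 (-1.06), Col11a1 (-0.75) and Col1a1 (-0.74). In SKO+MEF2C Col28a1 (0.52), Col11a1 (0.36) and Col14a1 (0.29) were higher and Col10a1 (-0.46), Col1a1 (-0.36) and Col5a1 (-0.35) lower. The Col1a1 and Col5a1 calls in SKO+Flag were lost in the compared groups alone (adjusted p = 0.066 and 0.060), and in SKO+MEF2C they were lost without any 1 of its 4 arrays (adjusted p of 0.092 to 0.15 and of 0.0504 to 0.15). Without any 1 of its 4 arrays, SKO+MEF2C had 0 to 2 collagens called between days in place of 6. Without SKO+Flag array 1 of day 6 or of day 10, 4 and 5 collagens were called in SKO+Flag in place of 8. In the compared groups alone, Col12a1 was the 1 chain still called between days in SKO+Flag. The Col3a1, Col28a1 and Col14a1 calls in SKO+Flag were also lost when 1 array or another was left out. So was the Col28a1 call in SKO+HDAC7. Col17a1 lay below the array median on both SKO+Flag arrays of day 6. Without SKO+HDAC7 array 1 of day 6 or array 2 of day 10, 9 and 8 were called in SKO+HDAC7 in place of 14.

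Among the called collagen-processing genes, most were lower after SKO and with HDAC7, and most were higher with MEF2C. The list held 28 genes for hydroxylation, folding, export, trimming of procollagen ends and binding of collagen, of which 26 were measured. In SKO+Flag against GFP 3 were higher and 18 lower (80.8% called, against 35.7% of all genes), with a median difference of -0.41 against -0.04 over all genes. With HDAC7 2 were higher and 12 lower (53.8% called against 10.9%, median -0.15), and with MEF2C 8 were higher and 1 lower (34.6% against 10.3%, median 0.10). Of the 26 genes, 21 lay above the array median on every array. Among all genes above the median level, the shares called were 56.3% for SKO+Flag over GFP, 20.6% for HDAC7 and 20.9% for MEF2C. The prolyl 4-hydroxylase subunits P4ha1, P4ha2 and P4ha3, which hydroxylate proline so that the helix is stable, were lower in SKO+Flag (-1.20 ± 0.06, -1.27 ± 0.07 and -1.19 ± 0.09). Serpinh1, the collagen chaperone HSP47, was also lower (-1.01 ± 0.07). The limma adjusted p-values of these 4 genes were at most 1.2e-06. With HDAC7, Plod2, a lysyl hydroxylase, was lower (-0.54 ± 0.07, limma adjusted p = 0.00079), as was P3h2, a prolyl 3-hydroxylase (-0.43 ± 0.06, adjusted p = 0.0011). P3h2 was higher with MEF2C by 0.56 ± 0.06 (adjusted p = 0.00019).

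Enzymes that trim procollagen differed among themselves. Tll1, a protease that removes the C-terminal propeptide, lay at 8.0 and 7.88 (day 6) and 6.87 and 7.04 (day 10) with SKO+Flag and at 8.55 and 8.46 (day 6) and 8.59 and 8.71 (day 10) with SKO+MEF2C. It was higher on every SKO+MEF2C array, by 1.13 ± 0.06 (limma adjusted p = 1.1e-06), and the MEF2C effect was larger at day 10 than at day 6 by 1.13 ± 0.11 (adjusted p = 0.0056). Pcolce2, which enhances that cleavage, lay at 6.23 (day 6) and 5.62 (day 10) with GFP and at 9.06 and 9.04 (day 6) and 8.95 and 8.98 (day 10) with SKO+Flag. It was higher in SKO+Flag by 3.08 ± 0.05 (limma adjusted p = 4.4e-12) on the mean of both days. Its GFP value at day 10 lay below the array median, so that it is not shown to be above background; at day 6, where it lay above, the difference was 2.82. Adamts3, which removes the N-terminal propeptide, lay at 5.51 (day 6) and 6.44 (day 10) with GFP, at 7.95 and 7.62 (day 6) and 7.04 and 7.14 (day 10) with SKO+Flag, at 7.28 and 7.36 (day 6) and 6.16 and 6.02 (day 10) with SKO+HDAC7 and at 7.01 and 7.02 (day 6) and 6.60 and 6.84 (day 10) with SKO+MEF2C. It was higher in SKO+Flag than in GFP by 1.46 ± 0.09 (limma adjusted p = 3.3e-07), although its GFP value at day 6 lay below the array median and is not shown to be above background; at day 10 the difference was 0.65 (adjusted p = 0.0037). It was lower with both HDAC7 (-0.73 ± 0.08, adjusted p = 0.00014) and MEF2C (-0.57 ± 0.08, adjusted p = 0.0008).

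Of 10 collagen receptor genes listed, 9 were measured. In SKO+Flag 1 was higher and 4 lower than in GFP, a share of 55.6% against 35.7% of all genes and 56.3% of genes above the median level. With HDAC7 3 were lower and none higher, and with MEF2C 3 were higher and none lower, each a share of 33.3% against 10.9% and 10.3% of all genes. Among genes above the median level, 20.6% were called with HDAC7 and 20.9% with MEF2C. Itga11, an integrin chain that binds fibrillar collagen, lay at 7.53 (day 6) and 8.90 (day 10) with GFP and at 5.79 and 5.89 (day 6) and 5.94 and 5.74 (day 10) with SKO+Flag, a difference of -2.37 ± 0.10 (limma adjusted p = 7.8e-09). Ddr1, a receptor tyrosine kinase that epithelia use to bind collagen, was higher in SKO+Flag by 0.59 ± 0.06 (adjusted p = 7.6e-06). Itga1, an integrin chain with a preference for type IV collagen, was lower with HDAC7 (-0.36 ± 0.07, limma adjusted p = 0.0061) and higher with MEF2C by 0.76 ± 0.07 (adjusted p = 4.4e-05).

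**Figure D4:**
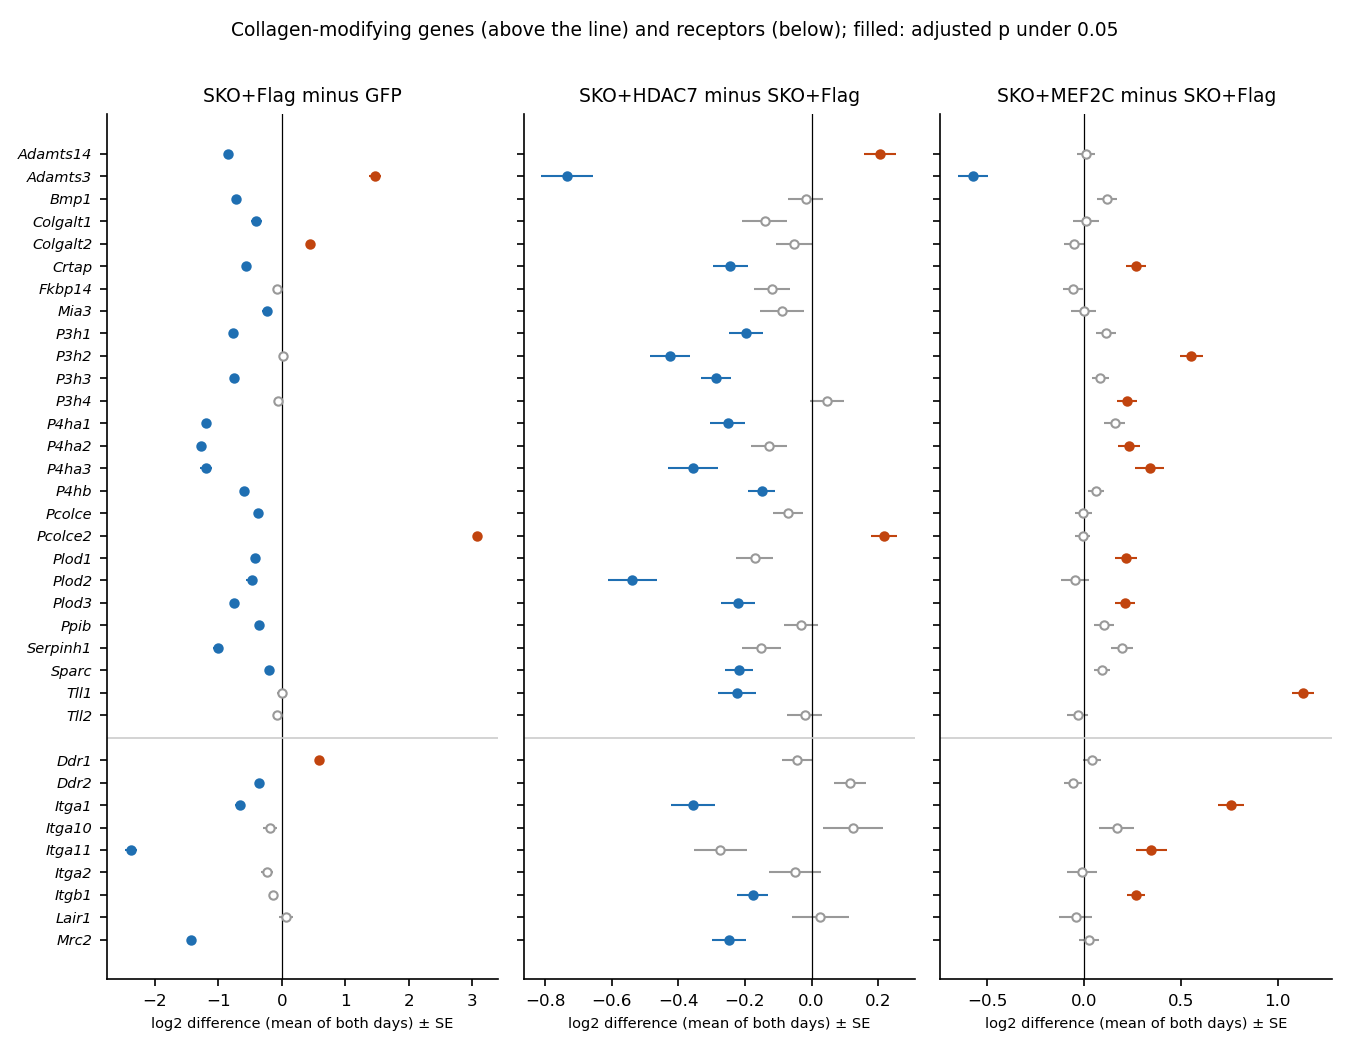
Difference in log2 expression (x axis, mean of both days ± SE) for the 26 measured collagen-processing genes (above the line) and 9 receptor genes (below it) in 3 comparisons, with called genes filled red where higher and blue where lower. Against GFP 18 of the 26 processing genes are lower, and Pcolce2 stands at 3.08 on the higher side; with MEF2C Tll1 is highest at 1.13; the x axes have different ranges.

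Markers of fibroblasts, smooth muscle and epithelium moved in the same comparisons as the chains. Their counts are read against the shares of all genes called, 35.7% for SKO+Flag over GFP, 10.9% for HDAC7 and 10.3% for MEF2C. Among genes above the median level those shares were 56.3%, 20.6% and 20.9%. Of 12 fibroblast markers, 9 were lower and none higher in SKO+Flag than in GFP, 3 were higher and 6 lower with HDAC7, and 4 were higher and none lower with MEF2C. Their summed linear level lay at 18300 to 19600 with GFP, 12300 to 14500 with SKO+Flag, 11900 to 13600 with SKO+HDAC7 and 14500 to 15800 with SKO+MEF2C. With HDAC7, Dcn (0.49), Lum (0.35) and Pdgfra (0.23) were higher. The 6 lower ones were Pdgfrb (-0.48), Thy1 (-0.37), Fn1 (-0.26), S100a4 (-0.22), Snai2 (-0.21) and Prrx1 (-0.18). Of 5 smooth muscle markers, 5 were lower in SKO+Flag than in GFP, 3 were lower with HDAC7 and 5 were higher with MEF2C. Their sum lay at 7450 to 8090 with GFP, 1910 to 3930 with SKO+Flag, 1030 to 2580 with SKO+HDAC7 and 3710 to 5650 with SKO+MEF2C. Of 7 epithelial markers, 5 were higher and none lower in SKO+Flag than in GFP and also with HDAC7, and 4 were lower and none higher with MEF2C. Their sum lay at 378 to 413 with GFP, 533 to 1020 with SKO+Flag, 708 to 1940 with SKO+HDAC7 and 525 to 665 with SKO+MEF2C. In these lists Fap lay below the array median on every array. Lum lay above it on 10 arrays, and SKO+Flag array 2 of day 6 was among those where it lay below. Only Krt8 and Krt19 among the epithelial and Acta2 and Tagln among the smooth muscle markers lay above it on every array. Tek, which endothelial cells express, differed by 2.78 in SKO+Flag over GFP, 0.60 with HDAC7 and -0.67 with MEF2C, while the other 5 endothelial markers lay below the array median on every array. The macrophage marker Cd68 differed by 0.55 and 0.63 in SKO+Flag over GFP and with HDAC7 and the keratinocyte marker Krt14 by 0.59 and 0.73, all called in limma; with MEF2C Krt14 was lower (-0.33) and Cd68 was not called (0.06). The sum of the endothelial list lay at 200 to 208 with GFP, 334 to 509 with SKO+Flag, 410 to 757 with SKO+HDAC7 and 291 to 360 with SKO+MEF2C. In the same order the macrophage sum lay at 197 to 219, 206 to 235, 229 to 313 and 215 to 245, and the keratinocyte sum at 200 to 211, 210 to 252, 230 to 325 and 198 to 217. The part of these cells in the collagen results was not tested.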

How the data were processed

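Total RNA of 14 samples was hybridised to Affymetrix whole-transcript arrays. What the authors deposited is 1 log2 value per array and probe set, for which the submitters' processing notes name RMA and Partek, with no versions. These values were used unchanged, without removing dim probe sets. The array platform's annotation gave 1 symbol for 21780 of 28815 probe sets; the others were left out. Symbols were checked against RefSeq, and 19935 genes remained after the probe set with the highest mean was taken for each. Precision is limited by the number of arrays, and detection calls were not used here. The probe sets' genome build is not given in the sources used here.

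One group-means model (vector by day, 8 groups) was fitted to all 14 arrays in R 4.3.3 with limma 3.58.1 (lmFit, eBayes), with 6 residual degrees of freedom. The GFP groups of 1 array borrow their spread. Adjusted p-values are limma's after Benjamini-Hochberg over all genes, and a gene was called under 0.05. The procedure was tested on simulated data. Up to 4 called chains per direction and comparison were named by size, plus partner chains, chains called between SKO+HDAC7 and SKO+MEF2C, and up to 4 called processing or receptor genes per direction. The chains, gene lists and tests were chosen with earlier results of these data known. Alternatives were quantile normalization, centring on array medians, a robust prior, array weights, fitting only the compared groups, averaging probe sets, testing only genes above the median level, replicate blocks and leaving out each array; the other probe set of Col6a5 and Col6a6 was added after the data were seen.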

Additional observations from a re-analysis of the deposited data

Results flagged for a closer look

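The difference between vectors changed with the day for some chains, in limma's test of the change itself. The HDAC7 difference was more negative at day 10 than at day 6, by a change of -0.68 for Col12a1 and -0.61 for Col11a1. Both calls were lost with array weights, with the replicate block and in the compared groups alone. The SKO effect, SKO+Flag against GFP, changed by -1.72 for Col12a1, -1.0 for Col11a1, -0.96 for Col5a1 and -0.83 for Col8a2, and by 0.47 for Col6a3, in the other direction. The Col8a2 call was lost in the compared groups alone (limma adjusted p = 0.21), and the Col6a3 call there (adjusted p = 0.24), with the replicate block (0.056 and 0.066) and without SKO+Flag array 1 or 2 of day 6 or array 1 of day 10 (0.057 to 0.096). The SKO values rest on 1 GFP array per day, so that a day and an array cannot be told apart there.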

How the results depend on the processing

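Of 116 called results for named chains, 94 stayed called under every other processing setting, 92 stayed called without each array in turn, and none reversed. The counts of collagens called on the mean of both days were 18 for HDAC7 (16 to 19 without each array), 7 for MEF2C (7 to 9), 17 between HDAC7 and MEF2C (16 to 18) and 28 for SKO against GFP (24 to 31). Under the other settings these counts were 18 throughout for HDAC7, 7 to 9 for MEF2C, 15 to 18 between HDAC7 and MEF2C and 20 to 30 for SKO. Without each array, the day 6 counts of collagens ranged from 5 to 6 for HDAC7 (8 with all arrays) and 3 to 4 for MEF2C (7). The counts between days ranged from 4 to 11 in SKO+Flag (8), 8 to 11 in SKO+HDAC7 (14) and 0 to 2 in SKO+MEF2C (6), and those for the change of an effect between days from 0 to 3 for HDAC7 (2), 0 to 2 for MEF2C (0) and 7 to 11 for SKO (11). In the compared groups alone, 5 collagens were called with HDAC7 at day 6, 4 with MEF2C at day 6, 12 for SKO at day 10, 1 between days in SKO+Flag, 0 for the change of the HDAC7 effect and 3 for that of the SKO effect. Quantile normalization gave 5 with HDAC7 at day 6 and 4 for the change of the HDAC7 effect. That last count was 5 with a robust prior, 4 among genes above the median level, and 0 with array weights. For the change of the MEF2C effect, the robust prior and genes above the median level gave 1 each. The replicate block gave 0 for the change of the HDAC7 effect (both forms) and 4 with MEF2C at day 6 (within day); on the mean of both days the collagens called with the block over both days were 18 for HDAC7, 7 for MEF2C and 27 for SKO. Whether the experiment numbers pair the arrays could not be told, because the values were mixed. Deviations of same-numbered arrays correlated at -0.24 to 0.18, above 0.1 in 4 of 15 pairs of groups. On average, 5 of 6 groups lay closer to their own number.

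Small differences that were not called changed sign. With MEF2C, Col1a2 was at -0.0244 and Col4a2 at -0.0119 after quantile normalization, and median centring gave -0.0028 for Col1a2, -0.0200 for Col4a2 and -0.0007 for Col2a1. For SKO against GFP, quantile normalization gave -0.0359 for Col11a1 and -0.0715 for Col4a5. Without each array, signs changed for Col10a1 with HDAC7 (-0.1023 to 0.0593), for Col4a2 (-0.0364 to 0.0407), Col6a1 (-0.0491 to 0.0352), Col2a1 (-0.0248 to 0.0679) and Col3a1 (-0.0547 to 0.0166) with MEF2C, for Col8a2 between HDAC7 and MEF2C (-0.0342 to 0.0657), and for Col4a5 (-0.0092 to 0.0200), Col6a1 (-0.0600 to 0.0243) and Col8a1 (-0.1455 to 0.0132) for SKO. Between HDAC7 and MEF2C, the Col6a3 call (-0.17, limma adjusted p = 0.025) was lost after quantile normalization (adjusted p = 0.13) and the Col6a1 call (-0.23) too (adjusted p = 0.056). The mean over its probe sets brought Col6a5 past the threshold with MEF2C (-0.50, limma adjusted p = 0.00030) and for SKO (0.57, adjusted p = 8.2e-05). The causes were not tested. Leaving out a GFP array was not run, since a group would be empty.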
